A study of Mus musculus with 6 samples.

Results

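Secretory cells pass most of what they export through the endoplasmic reticulum, and 47 genes of that route were followed here in the mouse first mandibular molar. They were taken by symbol from the deposited table of 17582 genes, and all 47 were found, 1 row each. They form 4 classes: 14 chaperones and folding enzymes, 10 genes of the translocon and signal peptidase, 15 genes of the COPII and COPI coats and KDEL receptors, and 8 stress sensors and factors. The molars came from C57BL/6 mice at postnatal day 4. The knockout group (n = 3 libraries) carried K14-Cre and a homozygous floxed Wnt10a allele, written Wnt10aflox/flox, and the control group (n = 3) held littermates with Wnt10aflox/flox and no Cre. Both groups therefore share the floxed alleles. The keratin 14 promoter drives Cre in epithelium, so mesenchymal Wnt10a was not targeted, and the whole molar holds both tissues. The labels leave unsaid whether a library is 1 animal or several, and p-values therefore reflect only library-to-library spread, which may be technical.

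Proteins enter the endoplasmic reticulum through the Sec61 channel, lose their signal peptide, are folded by chaperones, and leave in COPII vesicles. COPI vesicles and KDEL receptors return escaped chaperones. When unfolded protein builds up, the sensors IRE1, ATF6 and PERK start the unfolded protein response, which raises chaperone genes and, if it lasts, the death-linked factor CHOP. Ameloblasts, which secrete enamel matrix, and odontoblasts, which secrete collagen and dentin matrix, are both heavy users of this route.

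Part of the response acts through short elements in chaperone promoters, and the promoters of these genes were read for 3 of them. RefSeq promoter sequences on GRCm38.p6, 250 bases before to 50 after the start, were on hand for 39 of the 47 genes, the others being Hyou1, Manf, Sec61a1, Ssr2, Spcs3, Kdelr2, Atf6 and Creb3l1. The endoplasmic reticulum stress element (ERSE), searched as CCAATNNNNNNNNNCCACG on both strands, was present in 7 of the 39 genes. All 7 were chaperone or folding genes, out of 12 of that class with a sequence, and the element was present in 0.119% of all 32851 promoters of this length. In Hspa5, on the plus strand at chr2:34771840-34772139, it began 65 bases before the start. The promoter is shown in full because this gene encodes BiP, the central chaperone and sensor regulator of the compartment, with the ERSE in capitals.

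Hspa5: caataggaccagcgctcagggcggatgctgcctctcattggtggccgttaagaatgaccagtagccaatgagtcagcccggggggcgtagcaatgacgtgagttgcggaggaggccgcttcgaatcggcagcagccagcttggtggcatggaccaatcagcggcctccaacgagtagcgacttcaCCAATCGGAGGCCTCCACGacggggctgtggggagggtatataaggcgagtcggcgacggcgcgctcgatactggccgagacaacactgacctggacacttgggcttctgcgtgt

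The element in the other 6 genes is shown with 20 bases on either side, in the direction of the gene, so that its shared ends can be compared. Hsp90b1 held 2 copies, of which the second, like those in Calr and Creld2, lay on the opposite strand and reads as the reverse complement. The copies lay at chr8:84847055-84847113 (Calr), chr10:86705618-86705676 and chr10:86705513-86705571 (Hsp90b1), chr11:50325780-50325838 (Canx), chr12:17266471-17266529 (Pdia6), chr14:118937807-118937865 (Dnajc3) and chr15:88819500-88819558 (Creld2). Calr, Hsp90b1 and Canx are on the minus strand, and Pdia6, Dnajc3 and Creld2 on the plus strand.
Calr: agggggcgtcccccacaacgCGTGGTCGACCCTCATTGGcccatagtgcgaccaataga
Hsp90b1, first copy: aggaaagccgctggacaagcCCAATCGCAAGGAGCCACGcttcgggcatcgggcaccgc
Hsp90b1, second copy: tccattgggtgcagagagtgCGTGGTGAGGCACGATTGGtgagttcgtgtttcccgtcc
Canx: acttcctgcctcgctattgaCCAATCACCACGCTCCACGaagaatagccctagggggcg
Pdia6: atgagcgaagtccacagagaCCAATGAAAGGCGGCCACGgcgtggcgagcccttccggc
Dnajc3: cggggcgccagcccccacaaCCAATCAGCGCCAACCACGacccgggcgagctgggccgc
Creld2: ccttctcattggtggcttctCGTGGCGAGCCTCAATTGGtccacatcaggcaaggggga

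A second form, ERSE-II, searched as ATTGGNCCACG, was present in 2 of the 39 genes, Herpud1 and Dnajb11, and in 0.0365% of all promoters. The unfolded protein response element (UPRE), searched as TGACGTGG, was present in 5 of the 39 and in 0.676% of all promoters. All 5 were coat or retrieval genes, out of 14 with a sequence: Sec23a, Sec24d, Copb1, Copb2 and Kdelr3. The reverse complement of UPRE, CCACGTCA, opens with the CCACG that closes ERSE and ERSE-II, but none of the 39 genes held both UPRE and either of these. Sec23a and Kdelr3 are shown for comparison, with the element in capitals, at chr12:59011984-59012031 on the minus strand and chr15:79516358-79516405 on the plus strand. In Kdelr3 it lay on the opposite strand.
Sec23a: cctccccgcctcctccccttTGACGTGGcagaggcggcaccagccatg
Kdelr3: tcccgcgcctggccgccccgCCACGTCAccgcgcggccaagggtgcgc
A match to these letters is a description of the sequence and does not show that a factor binds there.

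Each library held an estimated 17920000 to 18390000 reads, judged from the steps between its low values. Levels are in FPKM, which divides the fragments of a gene by its transcript length and by the mapped total of the library. Wnt10a, the targeted gene, was lower in all 3 knockout libraries (18.07 to 19.94 FPKM) than in all 3 controls (31.68 to 36.59 FPKM). It was the single gene of 11934 tested that passed an adjusted limma p of 0.05, a share of 0.00838%. Markers of neighbouring tissues differed between libraries. Skeletal muscle markers summed to between 49.13 and 71.74 FPKM in knockout 3, control 1 and control 3 and to between 6.94 and 13.99 FPKM in the other libraries. Oral mucosa keratins summed to 161.85 FPKM in control 1 and to between 9.28 and 12.41 FPKM elsewhere. Markers of plasma and B cells, which are rich in this route, summed to between 0.40 and 0.94 FPKM over the 3 of 5 found in the table. None of these 3 reached the filter for testing. The tissue is bulk RNA, so a change in the number of cells of a type and a change in RNA per cell cannot be told apart.

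All 47 genes passed the filter of 1 FPKM in at least 3 libraries, and none changed past the adjusted threshold (limma on log2(FPKM + 1), lowest adjusted p = 0.622). At an unadjusted p under 0.05 there were 5 of the 47, all higher in the knockout, where 5.7% of all genes tested passed that mark, 2.99% higher and 2.71% lower. The knockout and control libraries did not overlap for 5 genes in the higher direction, against 4.8% of all genes, and for 1 gene in the lower direction, against 5.35%. The log2 fold change was above 0 for 37 of the 47 genes, against 48.2% of all genes tested. That share differed with transcript length, at 1496 of 1969 genes under 1500 bases and 1752 of 5764 of 3000 bases or more. By class the log2 fold change was above 0 for 14 of 14 chaperones, 10 of 10 translocon genes, 11 of 15 coat and retrieval genes and 2 of 8 stress genes. With the length trend of each library removed these counts were 13, 9, 5 and 3, the exceptions in the first pair of classes being Dnajb9 and Sec61b. The median was 0.11 for chaperones, 0.12 for the translocon, 0.02 for coats and retrieval and -0.09 for stress genes, beside -0.005 for all genes tested. For 45 of the 47 the 95% interval lay within a log2 change of 0.5 in either direction, as it did for 95.3% of all genes. The 2 exceptions were Ern1 and Creb3l2.

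**Figure D1:**
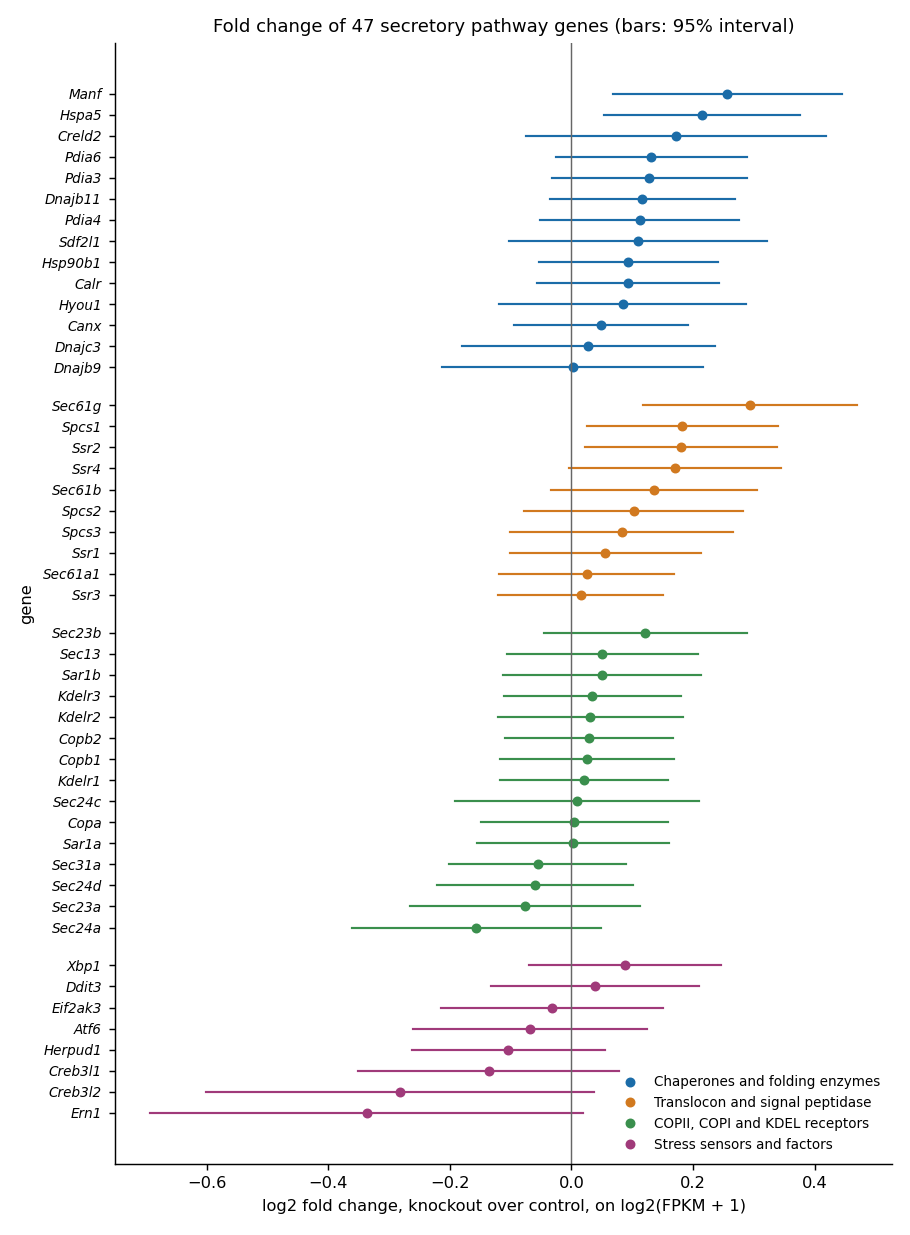
Log2 fold change of knockout over control on the log2(FPKM + 1) scale (x axis) for each of the 47 genes (y axis), coloured by class. Points are limma estimates from 3 against 3 libraries and bars their 95% intervals. Every chaperone and translocon point lies to the right of 0 (Dnajb9 and Sec61b lie to its left with the length trend removed), while Ern1 and Creb3l2 have the widest bars.

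None of the 14 chaperones and folding enzymes passed the test, and 2 of them, Hspa5 and Manf, had an unadjusted p under 0.05. Hspa5 (chromosome 2, 34772090 to 34776529, positions on GRCm38 from RefSeq) was at 165.75, 168.60 and 148.32 FPKM in knockout libraries 1, 2 and 3 and at 141.75, 142.58 and 130.87 FPKM in control libraries 1, 2 and 3. Every knockout library was above every control library, and library 3 was the lowest of its group on both sides. On the log2 scale the fold change was 0.21 (SE 0.073, 95% interval 0.054 to 0.375; adjusted p = 0.798 by limma).

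Manf, a small protein of the compartment that is induced and released under stress, lies on chromosome 9 (106888753 to 106891938). It was at 67.02, 64.35 and 55.29 FPKM in the knockout and at 50.30, 55.96 and 49.23 FPKM in the control. Knockout 3 lay just under control 2, and the other knockout libraries were above all controls. Its log2 fold change of 0.26 (SE 0.085; adjusted p = 0.786 by limma) was the highest of the class.

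The lectin chaperone calreticulin, Calr, was the most abundant chaperone transcript. It was at 265.18, 291.58 and 269.29 FPKM in the knockout and at 260.34, 264.52 and 248.90 FPKM in the control. Although the groups did not overlap, knockout 1 and control 2 were less than 1 FPKM apart, and the log2 fold change was 0.09 (SE 0.068; adjusted p = 0.894 by limma), or 0.051 without knockout 2. Its membrane-bound relative Canx averaged 62.2 ± 2.57 FPKM over knockout and 60.1 ± 1.75 FPKM over control libraries (mean ± SD, n = 3, as for all such pairs that follow), with a log2 fold change of 0.05.

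The disulfide isomerases, which form and shuffle the bonds of folding proteins, lay close together. Pdia3, which works with the lectin chaperones, was at 208.36, 217.25 and 191.40 FPKM in the knockout and at 190.08, 196.13 and 177.69 FPKM in the control. Pdia6 was at 91.55, 91.07 and 82.35 FPKM in the knockout and at 81.61, 84.10 and 75.82 FPKM in the control. For both, knockouts 1 and 2 were above all controls and knockout 3 was among them. The log2 fold changes were 0.13 for Pdia3 (SE 0.073) and 0.13 for Pdia6 (SE 0.072), and 0.11 for Pdia4, whose means were 43.0 ± 2.20 and 39.7 ± 2.67 FPKM.

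Partners of BiP had fold changes over a wider range, a difference that was not tested. Dnajb11, which binds unfolded clients for BiP, had a log2 fold change of 0.12 (SE 0.069), and Sdf2l1, which works with it, one of 0.11 (SE 0.096). Hyou1, which renews the nucleotide bound to BiP, had 0.08 (SE 0.092). Dnajb9, a strongly stress-induced partner, was at 28.3 ± 3.35 and 28.2 ± 2.61 FPKM, so that the log2 fold change was 0.002 (SE 0.098), and Dnajc3 had 0.03 (SE 0.095). Hsp90b1, the HSP90 of the compartment, had 0.09 (SE 0.067), and Creld2, a secreted stress-induced protein, 0.17 (SE 0.112). The 7 genes with an ERSE thus lay between 0.03 (Dnajc3) and 0.21 (Hspa5), and the 5 chaperone genes whose promoter sequence held no ERSE between 0.002 (Dnajb9) and 0.13 (Pdia3). Among the latter, Dnajb11 held the second form, ERSE-II. Manf (0.26) and Hyou1 (0.08) had no sequence to search. The difference between these ranges was not tested.

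Most chaperones were lowest in library 3 of each group. This held in both groups at once for 12 of the 14, against 40.3% of all genes tested. It also held for 6 of 10 translocon genes, 8 of 15 coat and retrieval genes and 2 of 8 stress genes. Dental epithelium markers (Krt14, Krt5, Epcam and Cdh1, 4 of 4 found) were also lowest in library 3 of each group. They summed to 2163.7, 2251.2 and 1926.2 FPKM in knockouts 1, 2 and 3 and to 2163.4, 2190.8 and 1742.8 FPKM in controls 1, 2 and 3. Of the 4, Epcam was higher in the knockout at an unadjusted p under 0.05, at 18.08, 19.09 and 13.95 against 13.74, 13.37 and 10.18 FPKM. Ameloblast markers (7 of 7 found, Amelx the most abundant) had their highest sums in library 3 of each group. They summed to 239660, 206400 and 244890 FPKM in knockouts 1, 2 and 3. In the same order the controls summed to 209490, 229420 and 244960 FPKM. Amelx made up most of each sum. Each of the 7 but Enam and Odam was highest in library 3 of each group. Klk4 alone of the 7 had an unadjusted p under 0.05, on the lower side. Odontoblast and bone markers also had their highest sums in library 3 of each group, 12399 and 12718 FPKM. Their lowest sums were in knockouts 1 and 2, 8602 and 9507 FPKM. Each of the 8 but Dmp1, Ibsp and Spp1 was highest in library 3 of each group, and Dmp1 was lowest there, at 18.25 and 21.62 FPKM. Knockouts 1 and 2 were the lowest libraries for each but Dmp1, Ibsp and Bglap. Of these 8, Ibsp and Spp1 were lower in the knockout at an unadjusted p under 0.05. Ibsp, a bone matrix protein, was at 46.02, 41.78 and 43.56 against 58.07, 67.02 and 59.85 FPKM (adjusted p = 0.144 by limma), and Spp1, which encodes osteopontin, at 19.79, 18.60 and 36.22 against 40.06, 39.36 and 33.64 FPKM (adjusted p = 0.736 by limma). The part of these markers in the chaperone values was not tested.

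**Figure D2:**
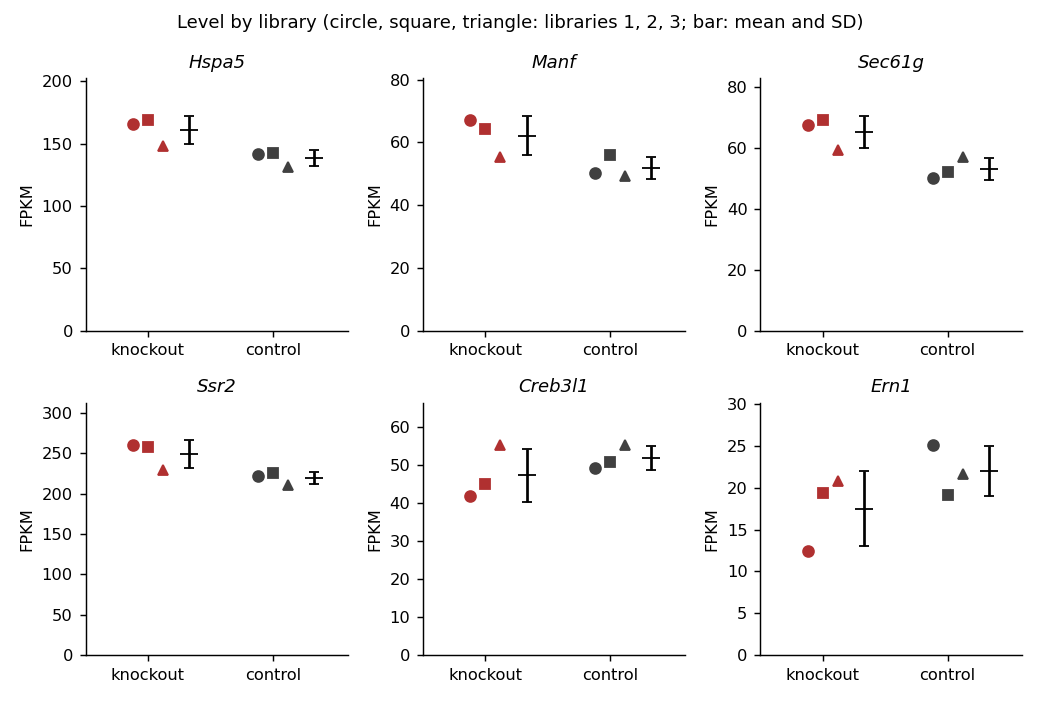
FPKM (y axis, from 0) of 6 genes in each library, for knockout (red) and control (grey), with the mean and SD (n = 3) beside the points. Hspa5, Sec61g and Ssr2 have groups that do not overlap, Manf overlaps by 1 library, and knockout 1 stands apart for Ern1 at 12.39 FPKM.

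Genes of the translocon, the channel that admits nascent chains, had the highest median level of the 4 classes, 105 FPKM over all libraries. Ssr4, a subunit of the translocon-associated TRAP complex, was the most abundant of all 47, with 349.56, 333.18 and 293.87 FPKM in the knockout against 274.40, 293.90 and 297.06 FPKM in the control. Knockouts 1 and 2 were above all controls, and knockout 3 was below controls 2 and 3. The log2 fold change was 0.17 (SE 0.079; adjusted p = 0.874 by limma).

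Ssr2, another TRAP subunit, was at 260.57, 257.60 and 229.81 FPKM in the knockout and at 222.38, 225.33 and 211.18 FPKM in the control. The groups did not overlap, with knockout 3 the lowest of its group and control 2 the highest of the other, and the log2 fold change was 0.18 (SE 0.072; adjusted p = 0.869 by limma). The other TRAP subunits differed less. Ssr3 was at 134 ± 3.76 and 133 ± 2.16 FPKM, with the smallest spread of the 47 (coefficient of variation 2.14% over all libraries), and Ssr1 at 27.0 ± 1.41 and 25.9 ± 1.12 FPKM, where the table lists a longest transcript of 9306 bases.

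The 3 subunits of the Sec61 channel had unlike fold changes. Sec61g, the small gamma subunit (chromosome 11, 16501638 to 16508484), had the highest fold change of the 47. It was at 67.55, 68.96 and 59.26 FPKM in the knockout and at 49.92, 52.10 and 56.97 FPKM in the control, so the groups did not overlap, with knockout 3 and control 3 nearest each other. Its log2 fold change was 0.29 (SE 0.080, with 0.118 to 0.470 as its 95% interval; adjusted p = 0.622 by limma). Sec61a1, the pore itself, was at 136.90, 140.81 and 132.88 FPKM in the knockout and at 135.79, 139.79 and 128.09 FPKM in the control, and its log2 fold change was 0.02 (SE 0.065). The difference between the subunits was not tested. Sec61b, the beta subunit, had 0.14 (SE 0.077), and -0.005 with the length trend removed.

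Signal peptidase cuts the signal from the entering chain. Its subunit Spcs1 was at 105.93, 102.31 and 92.51 FPKM in the knockout and at 86.58, 91.70 and 86.05 FPKM in the control, a log2 fold change of 0.18 (SE 0.071; adjusted p = 0.869 by limma). Its groups were separate by less than 1 FPKM. Spcs2 and Spcs3 had 0.10 (SE 0.082) and 0.08 (SE 0.083). Sec61g, Sec61b and Spcs2 have 4, 2 and 1 pseudogenes in GENCODE M21 that match them at 95% identity or more over at least 200 bases, so their values are uncertain where reads could be shared.

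Short transcripts as a whole had a median log2 fold change above 0, and the translocon holds many of them. Over all genes tested the median log2 fold change was 0.08 for the 1969 genes under 1500 bases, 0.02 for the 4200 from 1500 to below 3000 bases, and -0.04 for the 5764 of 3000 bases or more. In the same order 1496, 2498 and 1752 of these genes were above 0. The 47 genes divided into 11, 18 and 18 over these lengths, with medians of 0.14, 0.09 and 0.007. Of them 11, 16 and 10 were above 0. With the length trend of each library removed, the log2 fold change was 0.18 for Sec61g, 0.11 for Ssr2, 0.097 for Spcs1, 0.064 for Ssr4 and 0.058 for Calr. It was 0.20 for Hspa5 and 0.23 for Manf. The class medians were then 0.10 for chaperones, 0.097 for the translocon, -0.01 for coats and retrieval and -0.10 for stress genes. The median of all genes tested was then -0.0014.

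**Figure D3:**
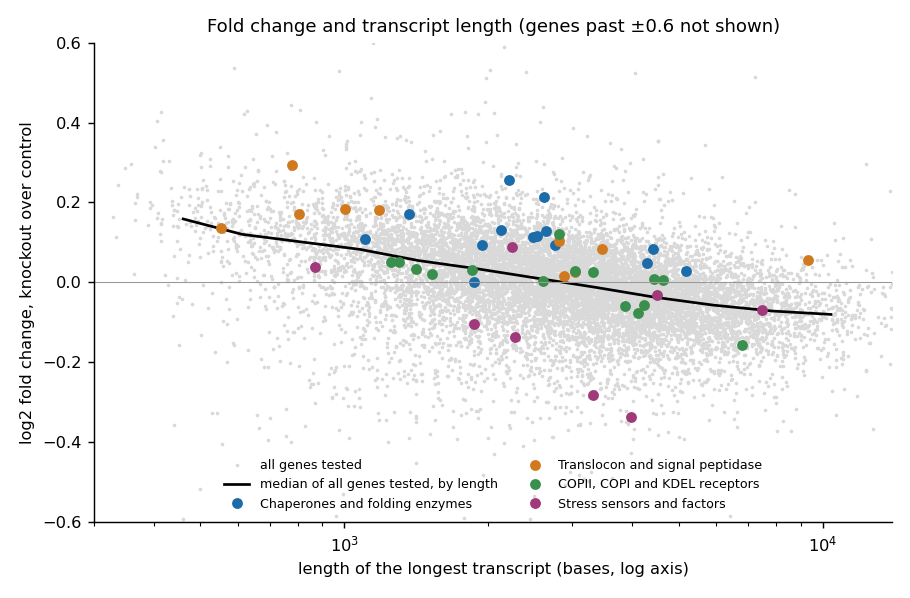
Log2 fold change of knockout over control (y axis) against the length of the longest transcript (x axis, log scale) for all genes tested (grey) and the 47 genes (coloured by class), with the median of all genes by length as a black line. The line passes from above 0 at short to below 0 at long transcripts, and the short translocon genes lie in its upper part, with Sec61g (779 bases) at 0.29.

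Coat and retrieval genes differed little between the groups. Fold changes of the 15 lay between -0.16 (Sec24a) and 0.12 (Sec23b), with 0 of 15 at an unadjusted p under 0.05 and no group separate from the other. In the COPII coat, Sar1a and Sar1b, the GTPases that start coat assembly, had 0.002 (SE 0.072) and 0.05 (SE 0.074). Sec23b, an inner coat subunit, was at 37.39, 35.15 and 31.96 FPKM in the knockout and at 31.50, 33.35 and 30.81 FPKM in the control. Its paralog Sec23a, whose loss in human and zebrafish disturbs collagen export and the craniofacial skeleton, was at 15.26, 16.34 and 14.76 FPKM in the knockout and at 17.90, 16.62 and 14.62 FPKM in the control. The log2 fold changes were 0.12 (SE 0.076) and -0.08 (SE 0.086), opposite in sign, and their difference was not tested. Sec23b was 0.071 without knockout 1, and Sec23a was -0.013 without control 1, -0.045 without knockout 3, -0.11 without knockout 2 and -0.15 without control 3.

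The cargo-binding Sec24 subunits differed widely in level. Sec24a, the least abundant of the 47, was at 3.93, 4.05 and 3.70 FPKM in the knockout and at 4.73, 4.72 and 3.94 FPKM in the control, a log2 fold change of -0.16 (SE 0.093; adjusted p = 0.891 by limma). It was -0.092 with the length trend removed. Control 3 lay between the knockouts, and the other controls were above all of them. Sec24c was at 35.3 ± 2.96 and 35.1 ± 3.75 FPKM and Sec24d at 26.8 ± 1.58 and 27.9 ± 1.40 FPKM. The outer coat subunit Sec13 was at 100.06, 94.78 and 87.19 FPKM in the knockout and at 90.69, 94.20 and 86.95 FPKM in the control, and its partner Sec31a at 67.2 ± 3.40 and 69.8 ± 1.88 FPKM.

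COPI subunits and KDEL receptors had group means close to each other. Copa was at 93.98, 101.50 and 91.46 FPKM in the knockout and at 100.19, 95.29 and 90.43 FPKM in the control, so that the ranges of the groups overlapped almost fully. Copb1 and Copb2 had log2 fold changes of 0.03 each (SE 0.065 and 0.063). Kdelr1 was at 124.41, 122.54 and 118.24 FPKM in the knockout and at 116.15, 121.36 and 122.52 FPKM in the control. Kdelr2 was at 95.87, 86.92 and 84.93 FPKM against 84.46, 89.36 and 87.88 FPKM, and Kdelr3 at 77.80, 74.91 and 71.93 FPKM against 73.80, 75.80 and 69.70 FPKM. In every library the order of level was Kdelr1, Kdelr2, Kdelr3, and the fold changes of the 3 receptors were 0.02, 0.03 and 0.03, with intervals between -0.121 and 0.183. The fold changes of the KDEL receptors, Sec13, Sar1a and Sar1b turned to below 0 with the length trend removed. The 5 genes with a UPRE lay between -0.08 (Sec23a) and 0.03 (Kdelr3).

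Stress sensors and factors had the lowest median level of the 4 classes, 17.1 FPKM, with Xbp1 and Creb3l1 well above it. Ern1, which encodes IRE1 alpha, was at 12.39, 19.35 and 20.86 FPKM in the knockout and at 25.17, 19.17 and 21.73 FPKM in the control. Creb3l2, a membrane-tethered factor that drives COPII genes in mouse cartilage, was at 13.26, 19.79 and 20.13 FPKM in the knockout and at 24.54, 18.70 and 21.35 FPKM in the control. For both genes knockout 1 was the lowest and control 1 the highest library, and the other 4 overlapped. Their log2 fold changes were -0.34 (SE 0.162; adjusted p = 0.880 by limma) and -0.28 (SE 0.145; adjusted p = 0.880 by limma), the lowest of the 47. Without knockout 1 they were -0.12 and -0.096, and without control 1 -0.24 and -0.19. Ern1 also varied most, with a coefficient of variation of 21.4% over all libraries.

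Creb3l1, the related factor OASIS that activates collagen I in mouse bone, was at 41.98, 44.95 and 55.23 FPKM in the knockout and at 49.32, 50.97 and 55.38 FPKM in the control. Knockouts 1 and 2 were the lowest and knockout 3 and control 3 the highest. Col1a1, the main collagen chain of odontoblasts and osteoblasts, had the same pair lowest and the same pair highest, at 4042.67, 4703.32 and 6639.76 FPKM in the knockout against 5777.44, 5488.17 and 6945.61 FPKM in the control. The log2 fold change of Creb3l1 was -0.14 (SE 0.097; adjusted p = 0.891 by limma), and it was -0.056 without knockout 1, -0.089 without control 3 and -0.25 without knockout 3. Odontoblast and bone markers were below 0 for 7 of the 8 tested, and the least abundant of the 8 averaged 26.1 FPKM. Their part in the Creb3l1 values was not tested.

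Xbp1, the factor that IRE1 activates by an unusual splicing of its mRNA, was at 120.23, 116.37 and 105.45 FPKM in the knockout and at 105.59, 112.19 and 103.49 FPKM in the control, a log2 fold change of 0.09 (SE 0.072; adjusted p = 0.897 by limma). It was 0.049 without knockout 1 and 0.14 without knockout 3. The table gives 1 value for all Xbp1 transcripts, so spliced and unspliced forms were not separated. Herpud1, which helps remove misfolded proteins, was the single gene of the 47 with every knockout library below every control library, at 11.97, 11.53 and 11.46 against 12.89, 12.05 and 12.86 FPKM. Knockout 1 and control 2 were 0.08 FPKM apart, and the log2 fold change was -0.10 (SE 0.072; adjusted p = 0.891 by limma). For the remaining sensors the group means were closer than the larger SD, with Atf6 at 5.75 ± 0.421 and 6.07 ± 0.399 FPKM and Eif2ak3, which encodes PERK, at 9.51 ± 0.859 and 9.73 ± 0.266 FPKM. Ddit3, which encodes CHOP, was at 14.7 ± 1.17 and 14.3 ± 0.217 FPKM, so that the log2 fold change was 0.04 (SE 0.078, with -0.133 to 0.210 as its 95% interval). With the length trend removed the fold change of Ddit3 was -0.061. Those of Atf6 and Eif2ak3, -0.07 and -0.03 before, were then 0.00075 and 0.0048.

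**Figure D4:**
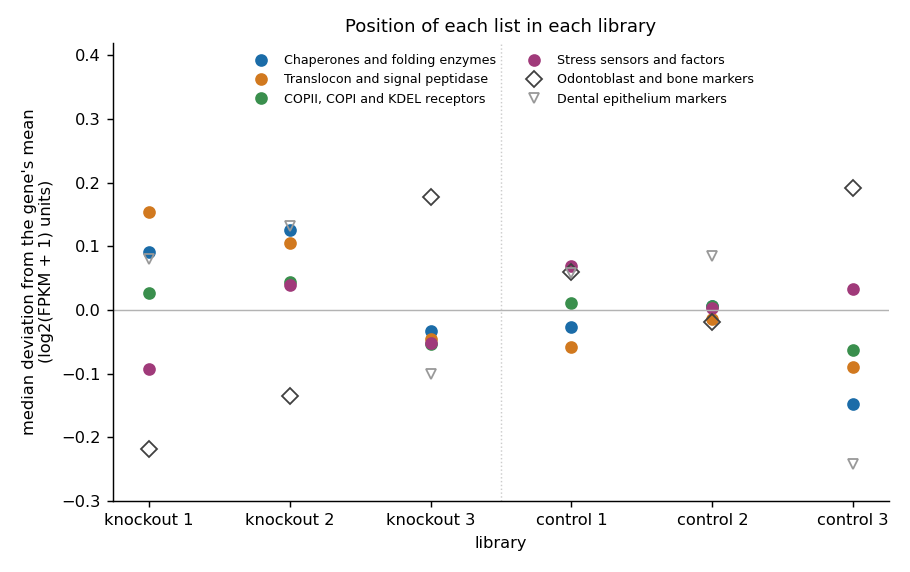
Median deviation of each class from its genes' means over the 6 libraries (y axis, log2(FPKM + 1) units) in each library (x axis), with 2 marker lists as open symbols. Chaperones and the translocon were highest in knockouts 1 and 2, at 0.092 to 0.154, where odontoblast and bone markers were lowest, at -0.218 and -0.135.

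Other genes of the route, in lists that share no gene with the 47, also gave no call by limma. These lists were not divided by transcript length, with which the share of all genes above 0 differed. Beside the counts that follow, 2.99% of all genes tested were higher and 2.71% lower at an unadjusted p under 0.05, and 48.2% were above 0. Of 22 tested in further folding and degradation, 1 was higher and 0 lower at that mark, with 15 above 0 and a median log2 fold change of 0.04. The pair with the smallest p were Derl1, a channel component of protein removal, at 43.9 ± 1.53 and 39.4 ± 0.769 FPKM, and Erp29, at 81.9 ± 1.36 and 75.6 ± 3.46 FPKM. Of 25 in targeting, translocation and N-glycosylation, 2 were higher and 0 lower, with 22 above 0 and a median of 0.07. These were Srp14, a signal recognition particle subunit, at 89.7 ± 7.45 and 77.0 ± 3.74 FPKM, and Dad1, a subunit of the glycosylating enzyme, at 183 ± 19.2 and 158 ± 11.5 FPKM.

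Among 24 further coat and cargo receptor genes, 1 was higher and 0 lower, with 16 above 0 and a median of 0.04. This was Tfg, which organises the sites where COPII buds, at 72.78, 76.77 and 61.02 FPKM in the knockout and at 58.05, 56.90 and 54.57 FPKM in the control. Its groups did not overlap, and its log2 fold change was 0.30 (SE 0.086; adjusted p = 0.678 by limma). Sec16b had the next smallest p, at -0.24 (SE 0.135). Of 19 further stress genes, including Atf4 and its targets, 0 passed in either direction, 9 were above 0, and the median was -0.01. Sesn2, a target of ATF4, had -0.24 (SE 0.128) and Creb3l4 0.17 (SE 0.116).

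The authors' deposited table holds their own comparison of the groups. At a q-value under 0.05 in the authors' deposited table, 21 of the 47 genes were higher and 6 lower in the knockout, beside 10.2% and 14.1% of all 16662 genes with a value there. The higher genes in the authors' deposited table were 11 of 14 chaperones, 8 of 10 translocon genes, 1 of 15 coat genes and 1 of 8 stress genes, and the lower ones 3 coat and 3 stress genes. The authors' deposited table gives log2 ratios of 0.22 for Hspa5, 0.26 for Manf, 0.30 for Sec61g and -0.33 for Ern1. The limma values for the same 4 genes were 0.21, 0.26, 0.29 and -0.34. On the spread between libraries limma passed 0 of the 47. The test behind the q-values in the authors' deposited table is not described in the labels or headers.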

How the data were processed

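The authors deposited FPKM values per library, per the file headers, with 2 decimals. Per the submitters' processing notes, Bowtie2 and mm10 were used; versions, annotation and FPKM tool are unstated in the labels. The authors' deposited table also holds a log2 ratio, p-values and q-values from a test the labels do not name. The 11934 genes that reached 1 FPKM in 3 or more libraries were tested with limma 3.58.1 (R 4.3.3, trended variance) on log2(FPKM + 1), group as the only term, two-sided, with Benjamini-Hochberg adjustment over all genes at 0.05; fold changes on this scale understate those of low genes. The method was tested on simulated data. FPKM divides by each library's total, so abundant transcripts can lower all other values. Depth was estimated from steps between low values, with 30 bases taken off the length. Between 80.5% and 84.4% of the low values used lay within 0.15 of a whole read. Chance gives 30% at a depth fixed beforehand, but the depth was chosen to fit these same values, so this comparison does not test it. On this estimate the lowest read count of any of the 47 genes in a library was 199 (Sdf2l1 in control 3), and intervals come from the spread between libraries. Groups came from the sample titles. Members and lists were chosen with earlier results of these data known. Genes given library by library were the 3 most abundant and the 3 with the smallest p of each class, the KDEL receptors and Xbp1. Of each further pathway list the 2 with the smallest p were named. Epcam, Klk4, Ibsp, Spp1 and Col1a1, and the marker genes named as exceptions, were picked after their values were seen. Promoters came from RefSeq (GRCm38.p6, matched by symbol and gene number) and were searched by exact letters. Pseudogene copies were sought with blastn 2.17.0 in GENCODE M21 transcripts. Python 3.11.15, numpy 2.4.6, pandas 2.3.3 and matplotlib 3.10.9 were used. Alternatives were a pseudocount of 0.1, no filter, a filter at 5 FPKM, replicate block, median-ratio scaling, removal of the length trend, a constant variance prior and each library left out.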

Additional observations from a re-analysis of the deposited data

How the results depend on the processing

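None of the 47 genes passed the adjusted threshold in any of the 13 alternatives run, and the lowest adjusted p was 0.122 (Sec61g without knockout 3). Over the whole table the count of 1 became 0 without a filter, 3 with a filter at 5 FPKM and 8 with the replicate block, and lay between 1 and 6 with a library left out. The 5 members at an unadjusted p under 0.05 became 10 with median-ratio scaling and 8 with the length trend removed, and between 3 and 16 with a library left out. The count was 16 without knockout 3 and 3 without knockout 1, control 1 or control 3. With the length trend removed the log2 fold changes of Kdelr1, Sec13, Kdelr2 and Kdelr3 turned to -0.031, -0.013, -0.0074 and -0.023. Those of Sar1a, Sar1b, Ddit3, Dnajb9 and Sec61b turned to -0.0088, -0.017, -0.061, -0.036 and -0.0054. Atf6 and Eif2ak3 turned to 0.00075 and 0.0048. Among the genes given library by library, the range with a library left out crossed 0 for Sec61a1 (-0.0099 to 0.053), Kdelr1 (-0.0028 to 0.041), Copa (-0.038 to 0.041) and Kdelr2 (-0.021 to 0.065). Among the others, some of these fits put Sar1a, Sec24c, Copb1, Dnajb9, Dnajc3 and Ddit3 below 0 and Eif2ak3 above it. With a library left out the chaperones above 0 numbered 12 to 14 of 14 (Dnajb9 and Dnajc3 being the exceptions), and the translocon genes 9 or 10 of 10 (Sec61a1). Class medians with a library left out lay between 0.062 and 0.151 for chaperones, 0.063 and 0.192 for the translocon, -0.0034 and 0.051 for coats and retrieval, and -0.101 and -0.040 for stress genes. The labels do not say that replicate numbers pair the libraries, and the values leave it unclear. Deviations of the same-numbered libraries 1, 2 and 3 correlated at -0.062, 0.17 and 0.388 over genes, the last being the highest of the 9 values, while knockouts 1 and 2 correlated best with controls 2 and 1 (0.304 and 0.193). The numbers were therefore not used as pairs. Under the block 7 members had an unadjusted p under 0.05. The causes of these shifts were not tested.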
